A study of Mus musculus with 10 samples.

Results

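The genes of AMPA-type glutamate receptors and their auxiliary subunits were examined in the prefrontal cortex of Arid1b+/- mice (HT) and wild-type mice (WT) at postnatal day 10. Members were picked by gene symbol, with earlier results of these data known, and numbered 10 of the 18216 genes listed: the pore-forming subunits Gria1, Gria2, Gria3 and Gria4, the transmembrane AMPA receptor regulatory proteins (TARPs) Cacng2, Cacng3 and Cacng8, the cornichons Cnih2 and Cnih3, and Shisa9 (CKAMP44). All 10 were listed and all 10 passed the minimum mean of 10 for testing, as did 16781 genes in all. RNA sequencing was done on 5 HT and 5 WT male C57BL/6N mice, each mouse giving a single library (numbered HT1 to HT5 for the heterozygotes, WT1 to WT5 for the controls). HT mice carried 1 Arid1b copy in which CRISPR/Cas9 had deleted an exon region and left a short insertion, described as protein-truncating, in all cells rather than in a chosen cell type, and WT mice carried none. Both groups shared strain, sex, age and tissue, and no treatment is named for either. Arid1b encodes a DNA-binding subunit of the BAF (SWI/SNF) chromatin-remodeling complex.

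AMPA receptors are tetramers of GluA1 to GluA4, the products of Gria1 to Gria4, and carry most of the fast excitatory current at cortical synapses. The makeup of the tetramer sets its properties: receptors with edited GluA2 pass little calcium, while receptors that lack it are calcium permeable. TARPs, cornichons and Shisa9 bind the pore in the membrane and alter its delivery to the surface, its anchoring at the postsynaptic density and the time course of its current. The levels and makeup of these receptors are known to shift during the first postnatal weeks in rodent cortex.

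The segment of the pore loop that holds the glutamine/arginine (Q/R) editing site is shown for the 4 pore-forming genes, since this site is what makes the GluA2 share of interest in the comparisons that follow. In Gria2 RNA the enzyme ADAR2 (gene Adarb1) edits the middle base of this codon, so that arginine replaces the glutamine written in the genome. Capitals mark the codon of the site, and each stretch is 63 bases of exon 11, read 5′ to 3′ on the coding strand from GENCODE M21 transcripts of GRCm38. The codon is number 600 of Gria1 (chr11:57243055-57243117, plus strand), 607 of Gria2 (chr3:80706890-80706952, minus strand), 612 of Gria3 (chrX:41610226-41610288, plus strand) and 608 of Gria4 (chr9:4464116-4464178, minus strand), counted from the start codon.
Gria1: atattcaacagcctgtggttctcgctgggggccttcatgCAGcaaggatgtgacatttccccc
Gria2: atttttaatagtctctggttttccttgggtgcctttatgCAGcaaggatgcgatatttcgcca
Gria3: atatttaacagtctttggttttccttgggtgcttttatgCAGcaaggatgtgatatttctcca
Gria4: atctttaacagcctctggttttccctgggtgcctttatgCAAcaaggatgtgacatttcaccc

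The genomic codon was CAG in Gria1, Gria2 and Gria3 and CAA in Gria4. Gria2 and Gria3 were the closest pair over this stretch, with 6 of 63 bases differing, and Gria1 and Gria2 the most distant, with 14 differing. Over whole transcripts, 0.28% of the 31-base words of Gria1, 1.36% of Gria2, 1.45% of Gria3 and 0.97% of Gria4 were found in a transcript of any other gene. Of these shared words, 17 of 17 for Gria1, 63 of 211 for Gria2, 48 of 143 for Gria3 and 51 of 61 for Gria4 were shared with another member. For the auxiliary subunits this share ran from 0% (Cacng3, Cnih2 and Shisa9) to 2.64% (Cacng8). The deposited values are 1 number per gene and show neither the edited share of Gria2 nor the flip and flop splice forms.

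The measurement was the normalized count of a gene, an estimate of its reads divided by a size factor for the library. Totals ranged from 31106300 to 32106800 per mouse, but depth is unknown, so precision was taken from the spread between mice. Arid1b itself, the check of the labels, was lower in HT, at -0.59 on the log2 scale (SE 0.05, limma adjusted p = 9.96e-05). Of the HT mice, 5 of 5 were below the WT mean. The 10 listed markers of cortical glutamatergic neurons were all present, with summed values of 70059 to 92447, and of the 8 markers of hindbrain and thalamus 3 had values, which summed to 319 to 488. Striatal markers were present and unequal (6434 to 23371), as were olfactory bulb markers (711 to 3771). HT2 was at the edge of several measures: mitochondrial transcripts made up 8.43% of its normalized counts, against 5.15% to 6.76% in the other 9 mice, its glutamatergic marker sum was the lowest, and its astrocyte marker sum (213363) and microglia marker sum (15378) were the highest. WT3 had the lowest sums of white matter (33781) and striatal (6434) markers. Dixon's outlier test within each group, run on the members, Arid1b and the 3 shares described later (28 groups of 5), marked 0 mice, and it was not run on the mitochondrial share or the marker sums. For the members, values without HT2, and without WT3 where these moved by more than 1.5 times, are given beside those with all mice.

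None of the 10 AMPA receptor genes passed the threshold of an adjusted p under 0.05 between HT and WT (limma, Benjamini-Hochberg over 16781 genes). Over all genes tested, 3 passed, or 0.0179%. The smallest adjusted p among the members was 0.51. At an unadjusted p under 0.05, 1 member was higher in HT (Cnih2), where 4.71% of all genes were higher at that level, and 0 members were lower, where 4.52% of all genes were lower. The values of HT and WT mice overlapped for all 10 members, and 1.62% of all genes did not overlap. Mean log2 values were lower in HT for 8 of 10 members and higher for Cnih2 and Cacng8, beside 51.2% lower among all genes. The median log2 fold change was -0.05 for the members and -0.0035 for all genes.

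**Figure D1:**
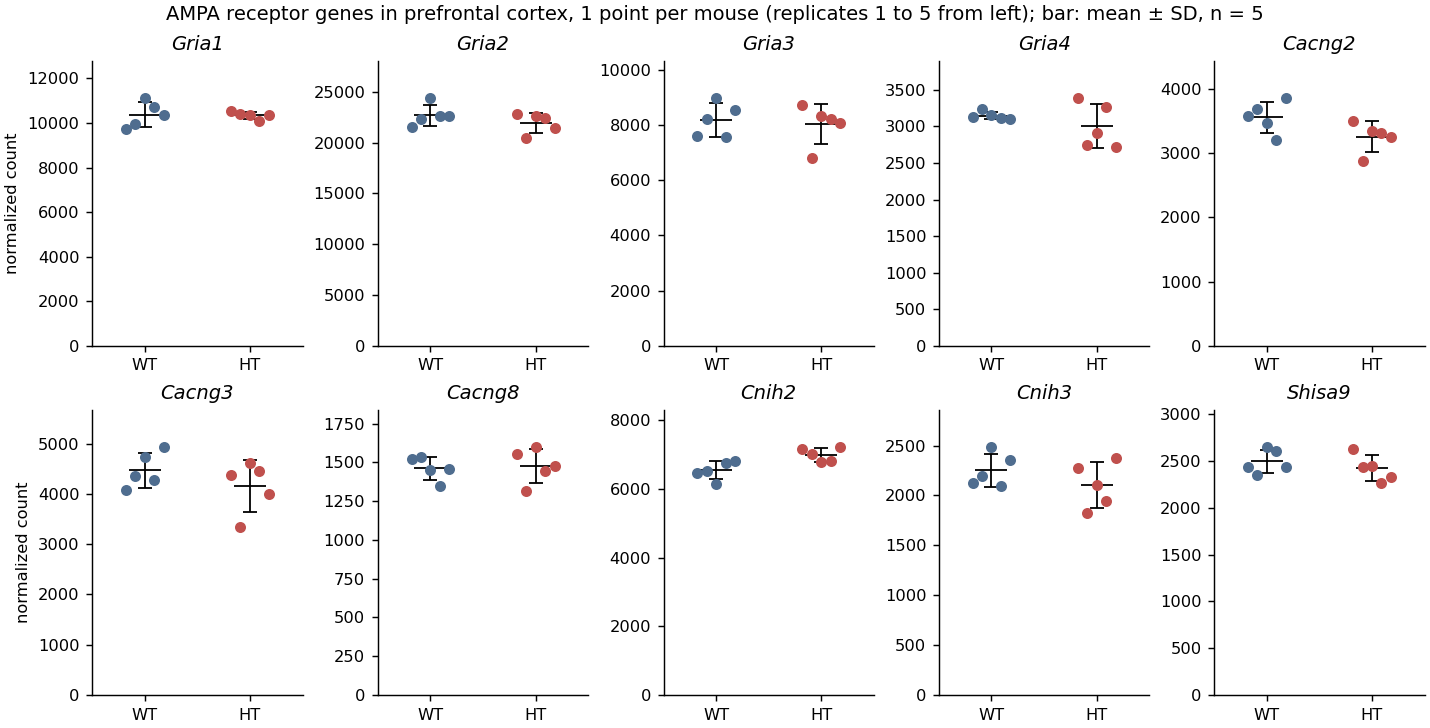
Normalized count (vertical axis, from 0) of each AMPA receptor gene in the 5 WT mice (blue) and 5 HT mice (red), with replicates 1 to 5 from left to right and bars for mean ± SD. The groups overlap in every panel, and the Cnih2 mean is 7002 in HT and 6551 in WT.

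Levels were compared between genes per kb of merged exon, over all 10 mice. Cnih2 had the highest level of the 10 members, at 4950 ± 238 normalized counts per kb (SD, n = 10), and no mouse overlapped with the next gene. Gria1 (1715 ± 64.4), Cacng3 (1554 ± 160) and Gria2 (1434 ± 66.0) followed, and the ranges of neighbors in this order overlapped. A gap without overlap separated Gria2 from Gria3 (822 ± 64.9), which did not differ beyond its spread from Cnih3 (792 ± 73.7). Cacng8 (627 ± 37.6) and Cacng2 (618 ± 50.1) were level with each other, with Cacng8 above in 6 of 10 mice. Gria4 (488 ± 34.4) and Shisa9 (469 ± 25.0) were the lowest, each above the other in 5 of 10 mice. Part of this order depended on the length used. With the longest coding transcript, Gria2 (2150) lay above Gria1 (1869) in 10 of 10 mice. Gria3 (1561) was level with Cacng3 (1554), while Cnih2 remained first. Cacng8 (775) then lay above Cacng2 (618) in 10 of 10 mice, and Cnih3 (816) above Cacng8 in 6 of 10.

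Gria1 (ENSMUSG00000020524, chr11:57011387-57330244, plus strand) encodes GluA1, whose tail is a phosphorylation target in synaptic potentiation. Its normalized counts were 10516, 10404, 10347, 10097 and 10370 in HT1 to HT5 and 9722, 9960, 11111, 10731 and 10376 in WT1 to WT5. The HT mice were tightly grouped inside the WT range. The means were 10347 ± 154 in HT and 10380 ± 563 in WT (SD, n = 5 each), which is -0.0030 on the log2 scale (SE 0.04, limma adjusted p = 0.99), with a 95% interval of the difference from -6.53% to 6.53%. The log2 fold change was -0.0050 without HT2 and 0.02 without WT3, so it has no stable sign.

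Gria2 (ENSMUSG00000033981, chr3:80681450-80802835, minus strand) encodes GluA2, the subunit that sets calcium permeability. Values were 22812, 20474, 22558, 22412 and 21431 in HT1 to HT5 and 21487, 22303, 24355, 22624 and 22564 in WT1 to WT5. HT2 was the lowest and WT3 the highest of the 10 mice, and the others were intermixed. The log2 fold change was -0.05 (SE 0.05, limma adjusted p = 0.76; 95% interval -10.0% to 4.12%), and -0.02 without either HT2 or WT3.

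Gria3 (ENSMUSG00000001986, chrX:41400854-41678601, plus strand) encodes GluA3, which pairs with GluA2 in many cortical receptors. Its counts were 8737, 6796, 8317, 8215 and 8084 in HT1 to HT5 and 7598, 8222, 8971, 7551 and 8537 in WT1 to WT5. Again HT2 was the lowest and WT3 the highest. Its log2 fold change, -0.03 (SE 0.07, limma adjusted p = 0.91; 95% interval -11.5% to 8.67%), turned to 0.03 without HT2 and to 0.0064 without WT3, so no direction can be given.

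Gria4 (ENSMUSG00000025892, chr9:4417896-4796234, minus strand) encodes GluA4, a subunit of early postnatal principal neurons and of interneurons. Values were 3386, 2750, 2911, 3262 and 2726 in HT1 to HT5 and 3131, 3233, 3159, 3118 and 3103 in WT1 to WT5. The 5 WT mice lay within a narrow band, with HT1 and HT4 above all of them and HT2, HT3 and HT5 below. Means were 3007 ± 301 in HT and 3149 ± 51.5 in WT (SD, n = 5 each), and the log2 fold change was -0.07 (SE 0.06, limma adjusted p = 0.70; 95% interval -13.0% to 4.06%). It was -0.04 without HT2 or without HT5 and -0.12 without HT1. The difference in spread was not tested.

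Among the TARPs, the gene with the lowest p was Cacng2 (ENSMUSG00000019146, chr15:77991748-78120028, minus strand), which encodes stargazin and links AMPA receptors to PSD-95. Its normalized counts were 3502, 2867, 3337, 3312 and 3247 in HT1 to HT5 and 3580, 3680, 3459, 3199 and 3850 in WT1 to WT5. All 5 HT mice were below the WT mean, but WT4 was below 4 of them. The mean was 3253 ± 235 in HT and 3553 ± 245 in WT (SD, n = 5 each), which is -0.13 on the log2 scale (SE 0.06, limma unadjusted p = 0.0542, adjusted p = 0.55). The 95% interval ran from -16.4% to 0.185%, and without HT2 the log2 fold change was -0.08.

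Cacng3 (ENSMUSG00000066189, chr7:122670492-122769393, plus strand) encodes a second TARP of cortical principal neurons. Values were 4377, 3343, 4612, 4463 and 3991 in HT1 to HT5 and 4079, 4364, 4736, 4269 and 4928 in WT1 to WT5. HT2 lay well below the other 9 mice, which overlapped. The log2 fold change was -0.11 (SE 0.08, limma adjusted p = 0.65; 95% interval -18.1% to 4.53%) with all mice and -0.04 without HT2.

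Cacng8 (ENSMUSG00000053395, chr7:3390683-3415648, plus strand) encodes the TARP best known from forebrain and hippocampal receptors. Counts were 1555, 1314, 1597, 1447 and 1477 in HT1 to HT5 and 1524, 1532, 1452, 1349 and 1456 in WT1 to WT5. HT mice included both the lowest (HT2) and the highest (HT3) value. The log2 fold change was 0.01 (SE 0.06, limma adjusted p = 0.95; 95% interval -7.51% to 10.1%), 0.05 without HT2 and -0.015 without WT4.

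Of the cornichons, which act in export from the endoplasmic reticulum and slow receptor deactivation at the surface, Cnih2 (ENSMUSG00000024873, chr19:5092868-5098521, minus strand) gave the lowest p of all members. Its normalized counts were 7167, 7033, 6782, 6812 and 7218 in HT1 to HT5 and 6479, 6515, 6161, 6771 and 6829 in WT1 to WT5. All 5 HT mice were above the WT mean, WT3 was the lowest mouse, and WT5 lay above HT3 and HT4. The means were 7002 ± 200 in HT and 6551 ± 266 in WT (SD, n = 5 each), a log2 fold change of 0.10 (SE 0.04, limma unadjusted p = 0.0352, adjusted p = 0.51; 95% interval 0.538% to 13.7%). HT2, the lowest mouse for most members, was not low for Cnih2, and the log2 fold change without it was 0.09 (limma unadjusted p = 0.0379, adjusted p = 0.67). The number of members with an unadjusted p under 0.05 fell from 1 to 0 without HT5, WT1, WT2 or WT3 and was 2 without WT4.

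Cnih3 (ENSMUSG00000026514, chr1:181352628-181460641, plus strand) pointed the other way. Values were 2274, 1820, 2104, 1946 and 2375 in HT1 to HT5 and 2126, 2198, 2483, 2094 and 2354 in WT1 to WT5. HT2 was the lowest mouse and WT3 the highest. The log2 fold change was -0.10 (SE 0.07, limma adjusted p = 0.65; 95% interval -16.5% to 4.03%), -0.05 without HT2 and -0.07 without WT3.

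Shisa9 (ENSMUSG00000022494, chr16:11984113-12270902, plus strand), whose product slows recovery of the receptor from desensitization, had counts of 2633, 2434, 2446, 2269 and 2326 in HT1 to HT5 and 2434, 2354, 2646, 2609 and 2431 in WT1 to WT5. The groups were intermixed, with HT4 the lowest and WT3 the highest. Its log2 fold change was -0.04 (SE 0.05, limma adjusted p = 0.79; 95% interval -10.1% to 4.72%), and -0.05 without HT2. It was -0.02 without HT4 or without WT3, -0.03 without WT4 and -0.07 without HT1.

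Makeup within each family was compared as the share of the summed value per kb of exon, a measure that does not depend on the size factor of the library. Gria1 made up 37.2% to 41.3% of the 4 pore-forming subunits over the 10 mice, Gria2 31.6% to 32.5%, Gria3 16.6% to 19.1% and Gria4 9.95% to 11.7%. The Gria2 share was thus the least variable of the 4. It was 31.7%, 31.6%, 32.5%, 32.3% and 31.7% in HT1 to HT5 and 32.5%, 32.4%, 32.5%, 32.4% and 32.1% in WT1 to WT5. With means of 31.96% ± 0.40 in HT and 32.4% ± 0.18 in WT (SD, n = 5 each), the difference of -0.41 percentage points did not pass an exact two-sided permutation test over the 252 assignments of 5 of 10 mice (p = 0.0794; the smallest p possible is 0.00794). The difference was -0.54 without HT3 (exact permutation p = 0.0238) and -0.32 without HT2 (exact permutation p = 0.183). The order of the subunits depended on the length used. With the longest coding transcript, mean shares over all mice were 35.0% for Gria2, 30.4% for Gria1, 25.4% for Gria3 and 9.21% for Gria4.

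Cacng3 was the main TARP of the 3 by this measure, at 52.7% to 57.8%, with Cacng2 at 20.5% to 23.5% and Cacng8 at 20.1% to 24.5%. The Cacng8 share was 23.1%, 24.5%, 23.1%, 21.8% and 23.7% in HT1 to HT5 and 23.5%, 22.6%, 20.98%, 21.4% and 20.1% in WT1 to WT5. All 5 HT mice were above the WT mean, and WT1 and WT2 lay inside the HT range. The means of 23.3% ± 0.99 in HT and 21.7% ± 1.35 in WT (SD, n = 5 each) differed by 1.56 percentage points (exact permutation p = 0.0635). It was 2.00 without WT1 (exact permutation p = 0.0397) and 1.24 without HT2 (exact permutation p = 0.143).

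The Cnih2 share of both cornichons was 86.4%, 88.6%, 86.6%, 87.6% and 85.9% in HT1 to HT5 and 86.0%, 85.6%, 83.3%, 86.7% and 85.4% in WT1 to WT5. HT mice were above the WT mean in 5 of 5 cases, with WT3 the lowest mouse and WT1 and WT4 inside the HT range. Means of 87.0% ± 1.06 in HT and 85.4% ± 1.26 in WT (SD, n = 5 each) differed by 1.63 percentage points (exact permutation p = 0.0556). The difference was 1.90 without HT5 (exact permutation p = 0.0397) and 1.95 without WT4 (exact permutation p = 0.0238), but 1.24 without HT2 (exact permutation p = 0.119) and 1.11 without WT3 (exact permutation p = 0.111). Adjusted over the 3 shares compared, all 3 exact permutation p-values were 0.0794, and none passed.

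**Figure D2:**
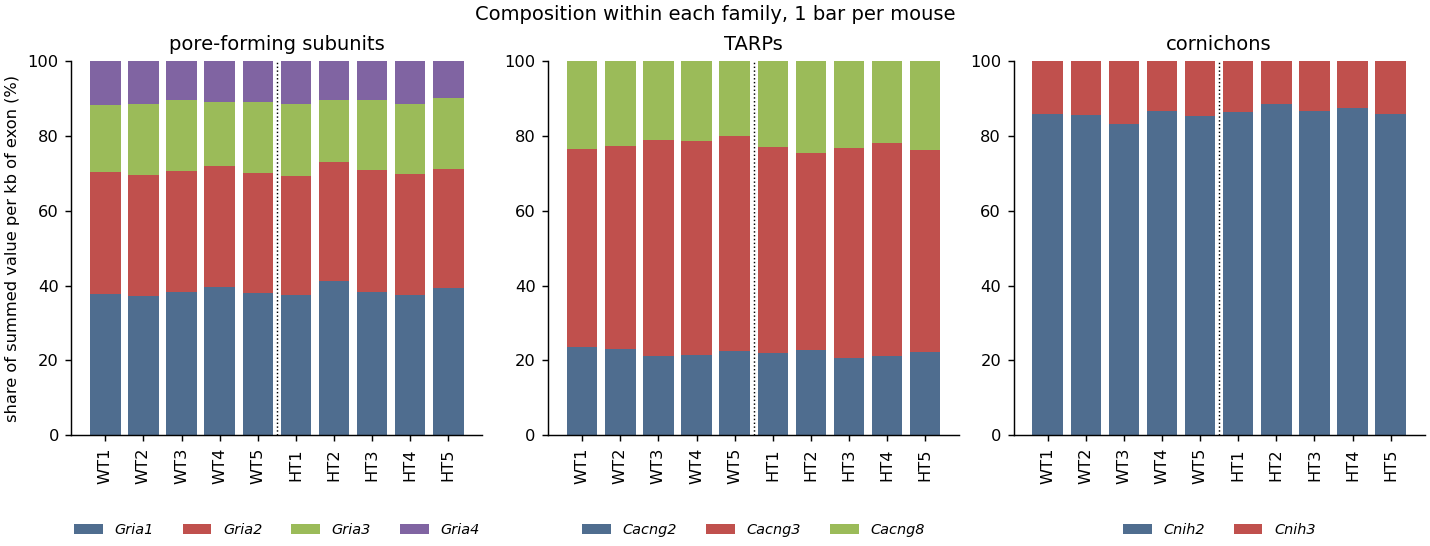
Share (%) of each gene in the summed normalized count per kb of merged exon of its family. Each stacked bar is 1 mouse, with WT on the left and HT on the right of each dotted line. Gria2 holds 31.6% to 32.5% of the pore-forming subunits in every mouse, Cacng3 52.7% to 57.8% of the 3 TARPs and Cnih2 83.3% to 88.6% of the cornichons.

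The lowest and highest values often came from the same mice. HT2 had the lowest value of the 10 mice for 6 of 10 members (Gria2, Gria3, Cacng2, Cacng3, Cacng8 and Cnih3), and WT3 had the highest for 5 (Gria1, Gria2, Gria3, Cnih3 and Shisa9). Summed over the members, normalized counts were 59236 in HT2 and 62158 to 68532 in the other 9 mice. Cnih2 followed neither mouse in this way: its value in HT2 was above the mean of the 10 mice and its value in WT3 was the lowest. Without HT2, 7 of 10 members were lower in HT, the median log2 fold change was -0.03, and Cnih2 was still the 1 member with an unadjusted p under 0.05. Without WT3, 6 of 10 members were lower and 0 had an unadjusted p under 0.05.

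**Figure D3:**
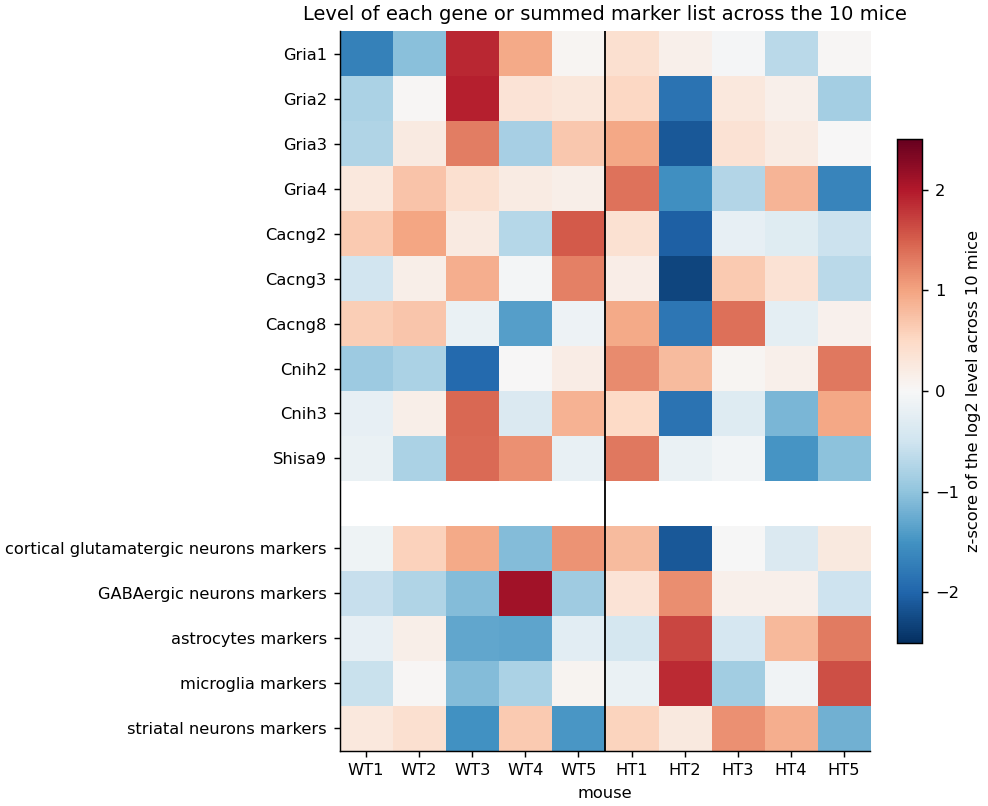
Level of each member (upper rows) and of summed marker lists of 5 cell types (lower rows) in each mouse, as the z-score of the log2 level across the 10 mice (color scale, blue for low and red for high). The HT2 column is blue for most members and for the glutamatergic markers and red for the astrocyte and microglia markers, while WT3 is red for most members and blue for Cnih2.

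Markers of other cell types were counted in the same fit. None passed the adjusted threshold, and the ranges of the summed values of HT and WT mice overlapped for every list. The counts at an unadjusted p under 0.05 stand beside 4.71% higher and 4.52% lower among all genes, and the directions beside 51.2% lower. All 10 astrocyte markers had a higher mean log2 value in HT, 7 with an unadjusted p under 0.05, and their sum was 169003 to 213363 in HT and 153280 to 180417 in WT. All 10 microglia markers were also higher, 3 with an unadjusted p under 0.05 (sums of 11011 to 15378 in HT and 10722 to 12337 in WT). Of the 10 glutamatergic neuron markers, 8 were lower in HT, 2 with an unadjusted p under 0.05 (70059 to 89884 in HT and 76452 to 92447 in WT), and of the 10 GABAergic neuron markers 7 were higher and 1 had an unadjusted p under 0.05, in the lower direction. GABAergic neuron sums were 17767 to 19487 in HT and 17215 to 20518 in WT. All 10 striatal markers and all 8 white matter markers were higher in HT, 0 of them with an unadjusted p under 0.05. Of the 10 oligodendrocyte precursor markers 9 were higher, 1 with an unadjusted p under 0.05 (sums of 19945 to 25485 in HT and 17669 to 23180 in WT). All 7 olfactory bulb markers tested were higher, 1 with an unadjusted p under 0.05 (867 to 3771 in HT and 711 to 3622 in WT), and 2 of the 3 tested markers of hindbrain and thalamus were higher, 0 with an unadjusted p under 0.05. In bulk tissue fewer cells of a type and less RNA per cell cannot be told apart. A fit with the astrocyte marker level as a covariate was added after the data were seen. In it 2 of 10 members (Cacng2 and Cnih3) had a negative log2 fold change and 0 had an unadjusted p under 0.05. Astrocyte marker means were higher in HT, so in this fit genotype and astrocyte level cannot be fully told apart. The limma adjusted p of Arid1b was 0.0069 in it, against 9.96e-05 without the covariate. With the striatal marker level as the covariate, Gria1 alone among the members changed sign, to 0.01, and Cnih3 went from -0.10 to -0.05, Gria3 from -0.03 to -0.0037 and Cacng8 from 0.013 to 0.0074.

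**Figure D4:**
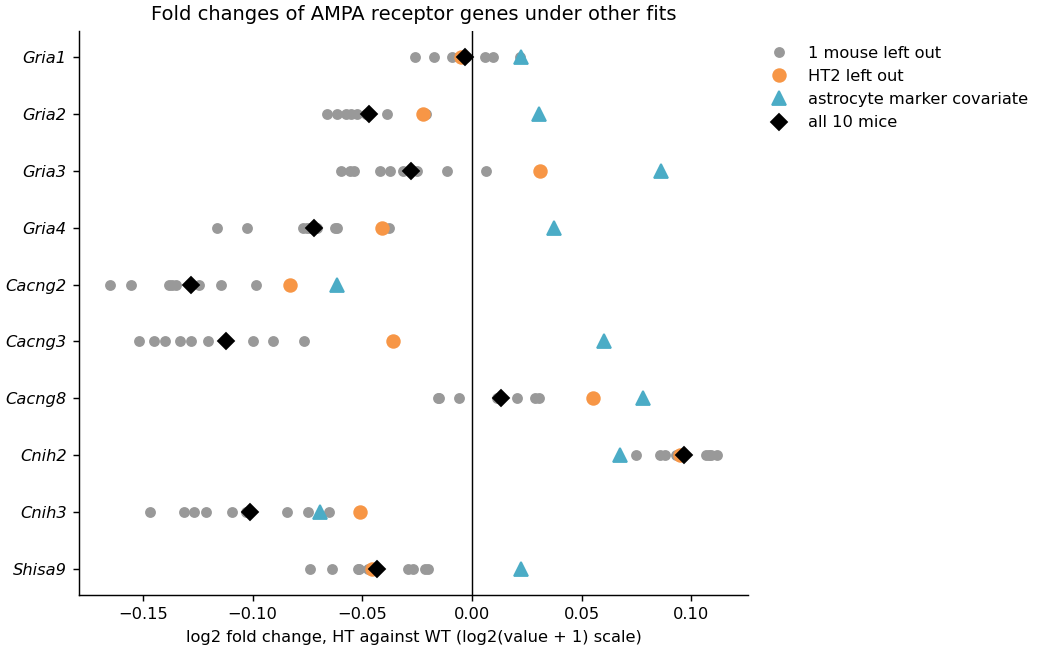
Log2 fold change of HT against WT (horizontal axis) for each member with all 10 mice (black diamonds), with 1 mouse left out (grey points, HT2 left out in orange) and with the astrocyte marker level as a covariate (blue triangles). Cnih2 stays above 0 and Cacng2 and Cnih3 stay below 0 in all fits drawn, while 7 members lie on both sides of 0.

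Genes that act with AMPA receptors were examined, together with kainate and delta receptor genes and other gamma subunits, in 7 lists of 49 genes. Of these 49 genes, 48 were tested. None passed the adjusted threshold (smallest adjusted p 0.47), 32 of 48 had a lower mean log2 value in HT (51.2% of all genes), and the median log2 fold change was -0.03. At an unadjusted p under 0.05, 1 was higher (Grik5) and 3 were lower (Prkca, Abhd6 and Sacm1l, the last named after its values were seen), where 4.71% of all genes were higher and 4.52% lower at that level. The groups overlapped for all 48, and 1.62% of all genes had groups without overlap.

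Other auxiliary subunits and associated proteins also bind AMPA receptors. Of 11 tested, 7 were lower and 4 higher, 0 of them with an unadjusted p under 0.05. At the extremes were Cacng5 (log2 fold change 0.12, SE 0.23), a TARP, and Gsg1l (-0.12, SE 0.07, and -0.07 without WT3), a claudin-like subunit that dampens receptor current. The wide error of Cacng5 came with values that differed between mice of each group (639 ± 200 in HT and 599 ± 245 in WT, SD, n = 5 each), and without HT2 its log2 fold change was -0.04.

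Genes of assembly in the endoplasmic reticulum, which build receptors before export, had 4 of 5 members lower and 2 with an unadjusted p under 0.05. Abhd6, a lipid hydrolase that binds pore subunits and limits their delivery, had 1203 ± 98.1 in HT and 1322 ± 70.7 in WT (SD, n = 5 each), with all 5 HT mice below the WT mean (log2 fold change -0.14, limma unadjusted p = 0.0435, adjusted p = 0.53). With the astrocyte covariate its log2 fold change was -0.02. Sacm1l, a phosphoinositide phosphatase, had 1639 ± 63.4 in HT and 1784 ± 59.6 in WT (log2 fold change -0.12, limma adjusted p = 0.48). Porcn was the only one of the 5 with a positive value (0.0091).

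The extracellular clustering list holds neuronal pentraxins and olfactomedins, secreted or membrane proteins that gather receptors at synapses. Of its 6 genes 4 were lower, with Nptx1 (0.10) and Nptxr (-0.11) at the extremes and 0 with an unadjusted p under 0.05. Nptx1 was 0.21 without HT2, 0.05 without HT1 or HT5 and 0.03 without WT4, and Nptxr was -0.07 without HT2. Cytoplasmic partners, the scaffolds and kinases that anchor and phosphorylate the subunits, had 11 of 15 lower. Prkca, the kinase PKC alpha, had the lowest p of all the lists, with 5713 ± 333 in HT and 6377 ± 323 in WT (SD, n = 5 each), all 5 HT mice below the WT mean and a log2 fold change of -0.16 (SE 0.05, limma unadjusted p = 0.0072, adjusted p = 0.47), or -0.09 with the astrocyte covariate. Gripap1, an endosomal protein that binds GRIP, had the most positive value (0.06, and 0.04 to 0.11 with 1 mouse left out).

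On the RNA editing list all 3 genes were lower, none with an unadjusted p under 0.05. Adarb1, the enzyme that edits the Gria2 codon printed in capitals, had 5774 ± 268 in HT and 5863 ± 292 in WT (SD, n = 5 each), or -0.02 on the log2 scale (SE 0.05, limma adjusted p = 0.89), and Adarb2 had -0.06 (SE 0.11). Kainate and delta receptors, the related glutamate receptor families, had 5 of 7 genes higher. Grik5, a kainate receptor subunit that needs a partner subunit to form channels, had 9035 ± 355 in HT and 8346 ± 318 in WT (SD, n = 5 each), with all 5 HT mice above the WT mean (log2 fold change 0.11, limma unadjusted p = 0.0195, adjusted p = 0.50), and Grik4 was at the other end (-0.06), with -0.014 without HT2 and -0.12 without WT4. Of the gamma subunits that do not act on AMPA receptors, Cacng6 was tested and is named after its values were seen, at 36.3 ± 10.9 in HT and 47.4 ± 6.82 in WT (log2 fold change -0.42, limma adjusted p = 0.57), and Cacng1 was not analyzed here.

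**Figure D5:**
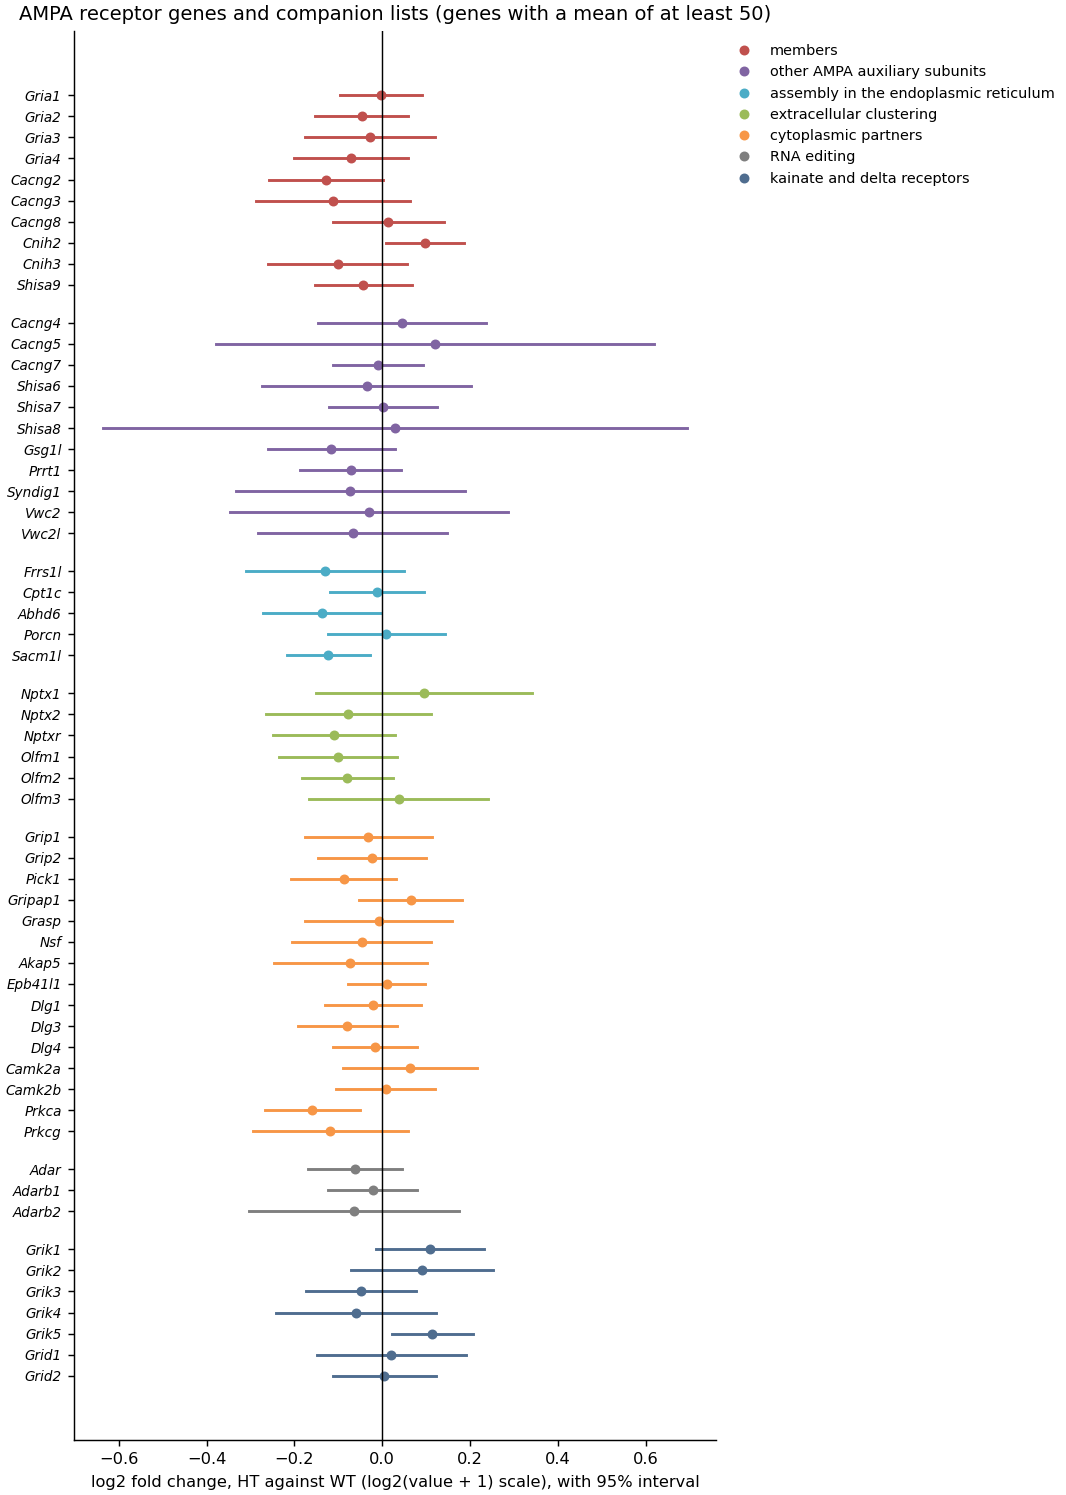
Log2 fold change of HT against WT on the log2(value + 1) scale (horizontal axis) with its 95% interval, for the 10 members and the genes of 6 companion lists with a mean of at least 50, grouped by color. The intervals of Cnih2 and Grik5 lie above 0 and those of Abhd6, Sacm1l and Prkca below 0, before any adjustment for the number of genes.

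The pattern across mice was described by Pearson's r over the 10 libraries of log2 values minus the mean of each group, among 13888 genes with a mean of at least 50. All genes of a library share its size factor and dissection, so these values are a description and are given without a p. Gria2 and Gria3 varied together (r = 0.86), and Gria1 was less like Gria2 (0.60) and Gria3 (0.30). The genes most like Gria1 were Tent4b (0.95), Mettl2 (0.93) and Trmt9b (0.92), and those most like Gria2 were Tax1bp1 (0.97), Pak1ip1 (0.96) and Dcun1d4 (0.95). For Gria3 they were Pgrmc2 (0.99), Rnf11 (0.98) and Rab3c (0.98), and for Gria4 Cept1 (0.97), Chtop (0.95) and Ssbp2 (0.94).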

How the data were processed

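RNA was measured in the prefrontal cortex of 5 HT and 5 WT mice, grouped by the sample titles. The authors prepared stranded poly-A libraries, estimated transcript abundance with Salmon 1.1.0 on GRCm38, summed the estimates to genes and divided them by DESeq2 1.30.1 size factors, per the methods and the submitters' processing notes. The deposited values are therefore a normalized signal per gene, relative to the other genes of the same library. Only 6.49% to 23.7% of low values (under 15) were whole multiples of 1 step (tolerance 0.02 steps), so reads and depth were not recovered. The lowest row total was 41.7, so genes with low totals are not listed.

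Gene positions came from GENCODE M21 (GRCm38), which held 18205 of the 18216 identifiers. Values were taken as log2(value + 1), which understates changes of low genes, and limma 3.58.1 (R 4.3.3) was run on 16781 genes whose mean reached 10 (mean-variance trend, two-sided, genotype only), with Benjamini-Hochberg adjustment over all of them and a threshold of 0.05. The procedure was checked on simulated data. Shares were compared by exact two-sided permutation. P-values measure the spread between these mice, whose litters and batches are not given in the labels. Correlations between libraries on the log2 scale were 0.982 to 0.989. The members and lists were chosen with earlier results of these data known, so no test over a list was run and lists are given by counts. Named genes were all members, Arid1b, from each companion list the genes with the most positive and most negative log2 fold change (mean of at least 50) and any past the threshold, and the 3 genes most like each pore-forming subunit. Sacm1l and Cacng6 (mean under 50) fall outside this rule and were named after their values were seen. The listed symbol Tamalin is the same gene as Grasp and was counted once. Alternatives were pseudocounts of 0.5 and 10, no filter and a minimum mean of 50, upper-quartile rescaling, quantile normalization, no variance trend, sample weights, the replicate number as a block, a threshold of 0.1, each mouse left out, other lengths for shares, and 2 marker covariates added after the data were seen.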

Additional observations from a re-analysis of the deposited data

How the results depend on the processing

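No member passed the adjusted threshold under any alternative run, and 3 to 4 genes in all did. Depth is unknown, so what it limits could not be stated. Of the members, 8 were lower in HT in the main fit and 2 with the astrocyte covariate. This count was 7 with quantile normalization, upper-quartile rescaling or the striatal covariate, 6 with sample weights, and 6 to 9 with 1 mouse left out. The number with an unadjusted p under 0.05 became 0 with the astrocyte covariate, without a variance trend and with the replicate block. It was 2 with sample weights, and 0 to 2 with 1 mouse left out. The cause was not tested. Signs turned for single genes, including Cacng3 (-0.11 with no covariate) and Cacng5 (0.12). With the astrocyte covariate Gria1 was 0.022, Gria2 0.030, Gria3 0.086, Gria4 0.038, Cacng3 0.060, Shisa9 0.022, Adarb1 0.027 and Cacng5 -0.18, and values that kept their sign but moved by more than 1.5 times were -0.062 for Cacng2, 0.078 for Cacng8, -0.020 for Abhd6, -0.091 for Prkca, -0.069 for Nptxr, 0.18 for Nptx1, 0.061 for Porcn and -0.24 for Adarb2. With the striatal covariate Gria1 was 0.011 and Grik4 0.0035, with quantile normalization Gria1 was 0.038 and Adarb1 0.0012, with sample weights Gria1 was 0.0071 and Gria3 0.0068, and with upper-quartile rescaling Gria1 was 0.0078. Members that kept their sign but moved by more than 1.5 times were Gria2 (-0.0065), Gria3 (-0.0010), Cacng8 (0.022) and Shisa9 (-0.023) with quantile normalization, Gria2 (-0.023), Gria4 (-0.042), Cacng3 (-0.054), Cacng8 (0.026) and Shisa9 (-0.027) with sample weights, and Gria3 (-0.017) and Cacng8 (0.024) with upper-quartile rescaling. With 1 mouse left out, log2 fold changes ranged from -0.026 to 0.022 for Gria1, -0.060 to 0.031 for Gria3, -0.015 to 0.055 for Cacng8, -0.17 to 0.0061 for Adarb2, -0.039 to 0.049 for Porcn and -0.035 to 0.33 for Cacng5, and, with no change of sign, from -0.074 to -0.020 for Shisa9, -0.047 to -0.0027 for Adarb1, 0.032 to 0.21 for Nptx1 and -0.12 to -0.014 for Grik4. Shares with 1 mouse left out differed by -0.54 to -0.32 percentage points for Gria2, 1.152 to 2.00 for Cacng8 and 1.11 to 1.95 for Cnih2, and the Cacng8 share not divided by length differed by 1.23 (exact permutation p = 0.0476). The titles number the replicates alike in both groups, 1 to 5, but the numbers name different mice. The correlations of same-numbered deviations were 0.040, -0.050, 0.24, -0.11 and 0.12, so the numbers were not taken as pairs. With the replicate block 3 genes passed, 0 members had an unadjusted p under 0.05, and the exact sign-permutation p-values of the shares were 0.0625, 0.125 and 0.0625 (the smallest p that 5 pairs allow is 0.0625). No scaling moved the median of all genes by more than 0.011.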
